A study of Mus musculus with 12 samples.

Results

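Among 11878 genes tested in CT26 cells, 49 stood higher after IFN-γ than without treatment while their mean after CX3CL1 stayed close to the untreated level. They were chosen on group means of log2(TPM + 1), where TPM is the level of a transcript per unit of its length, scaled to a fixed total in each library. A gene was taken when its mean over the 12 libraries was at least 0.2 TPM, the IFN-γ mean was at least 0.8 above the untreated mean, all 3 IFN-γ libraries were above all 3 untreated libraries, and the CX3CL1 mean was within 0.2 of the untreated mean on either side. Of 390 genes that met the IFN-γ conditions, 330 were more than 0.2 above the untreated level after CX3CL1, 3 were more than 0.2 below it, and 57 lay in between. Symbols with 17 prefixes, among them those of interferon-induced, matrix and solute carrier families, were left out by the rule, which removed TRIM46, IFI213, SLC6A9, SLC41A3, OAS1D, CXCL9, H2-T22 and GBP8 and left the 49. The name of the set is therefore its rule, and neither the rise with IFN-γ alone nor the flat level with CX3CL1 alone is a finding.

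CT26 cells are a line of mouse colon carcinoma kept in culture. The cells were left without treatment or received recombinant CX3CL1 at 2 µg/ml, IFN-γ at 100 ng/ml, or the same CX3CL1 and IFN-γ together, for 8 hours. The study's text also speaks of TNF-α and of CX3CL1 being added after the cytokines, whereas the labels of the combined libraries name CX3CL1 and IFN-γ alone and no order. Each of the 4 groups had 3 biological replicates, and all results refer to this 1 line in culture. No epithelial marker of 5 was above 1 TPM in any library except KRT18, at 18.4 to 53.6 TPM, and EPCAM was listed at 0 in all 12, whereas VIM, a mesenchymal filament, was at 1680 to 4830 TPM. Of 12 leukocyte markers, CD3E, CD4 and CD8A were listed at 0 in every library and 11 stayed under 1 TPM throughout. Their summed level was 0.929 to 1.9 TPM without treatment, 0.593 to 2.49 with CX3CL1, 0.485 to 0.674 with IFN-γ and 0.321 to 0.643 with the combined treatment.

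IFN-γ binds a receptor at the cell surface that activates the kinases JAK1 and JAK2. Its signal is known to reach genes through DNA elements called GAS and ISRE, the latter bound by IRF factors. CX3CL1, or fractalkine, is a chemokine that signals through the G protein-coupled receptor CX3CR1. Genes known to respond to IFN-γ include those for antigen presentation, antiviral defence, complement and tryptophan breakdown.

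The letters in front of the genes are shown first, because GAS and ISRE are the elements through which IFN-γ is known to act. The RefSeq promoter table (GRCm38.p6, the assembly that mm10 stands for) matched 37 of the 49 genes, and the 250 bases before each annotated start were searched on both strands for TTCNNNGAA (GAS) and for GAAA, 2 bases of any kind and GAAA (ISRE). At least 1 of these motifs was found for 7 of the 37 genes, or 18.92%, and for 936 of the 9343 tested genes with a promoter, or 10.02%. GAS was found for 3 of the 37, or 8.11%, against 7.18% of the tested genes, and the ISRE for 4, or 10.8%, against 3.26%. The NF-kB motif GGGA, 2 bases of any kind and TTCC was found for 0 of the 37 genes and for 1.54% of the tested genes. TGATGNAA, a motif of ATF4 and C/EBP dimers, was found for NUPR1 alone among the 37 and in 2.35% of the tested genes. A match describes letters and is not a binding site. The stretches below belong to the 6 genes with a GAS or ISRE that had the highest levels in the libraries with IFN-γ, and capitals mark the motif.
NUPR1, GAS, chr7:126625580-126625608, minus strand: atgggcccagTTCTGGGAAagggccagat
TMCO4, ISRE, chr4:138972790-138972859, plus strand: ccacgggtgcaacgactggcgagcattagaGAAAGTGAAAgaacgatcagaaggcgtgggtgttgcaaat
SERPINA3G, GAS, chr12:104236084-104236146, plus strand: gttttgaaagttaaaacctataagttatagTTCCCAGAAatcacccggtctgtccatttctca
CYP4V3, ISRE read on the other strand, chr8:45333253-45333322, minus strand: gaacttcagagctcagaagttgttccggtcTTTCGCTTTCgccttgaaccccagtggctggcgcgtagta
SERPINA3F, GAS, chr12:104214393-104214461, plus strand: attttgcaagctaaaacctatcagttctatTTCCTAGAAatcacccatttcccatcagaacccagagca
CTSS, ISRE, chr3:95526735-95526785, plus strand: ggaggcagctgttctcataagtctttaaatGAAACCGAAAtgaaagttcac
The stretches of SERPINA3F and SERPINA3G, set side by side at the motif without gaps, had the same base at 41 of 63 positions and at 8 of the 9 in the motif. The NUPR1 stretch lies upstream of the RefSeq start. With 30 bases on each side of the motif it overlaps an exon in the GENCODE vM21 annotation, whose gene was not recorded. It is therefore printed with 10 bases on each side. The other 5 stretches overlap no annotated exon. The TMCO4 and SERPINA3F stretches each precede an annotated start that lies inside the RefSeq span of the gene.

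In the values that chose them, the 49 genes differed widely in level. The IFN-γ mean was at least 10 TPM for 16 genes, from 1 to under 10 TPM for 29 and under 1 TPM for 4. Without treatment, 25 of the 49 had a mean under 1 TPM and 11 a mean of at least 10 TPM. SERPINA3G, SERPINA3F, UBD, IDO1 and 4931431B13RIK were listed at 0 in all 3 untreated libraries, so no fold is given for them. The median IFN-γ minus untreated difference was 1.10 on the log2(TPM + 1) scale, with a range of 0.80 to 4.20, and the median CX3CL1 minus untreated difference was 0.04, with a range of -0.14 to 0.19. By the rule all 49 had non-overlapping IFN-γ and untreated libraries, as did 20.6% of all genes tested.

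**Figure D1:**
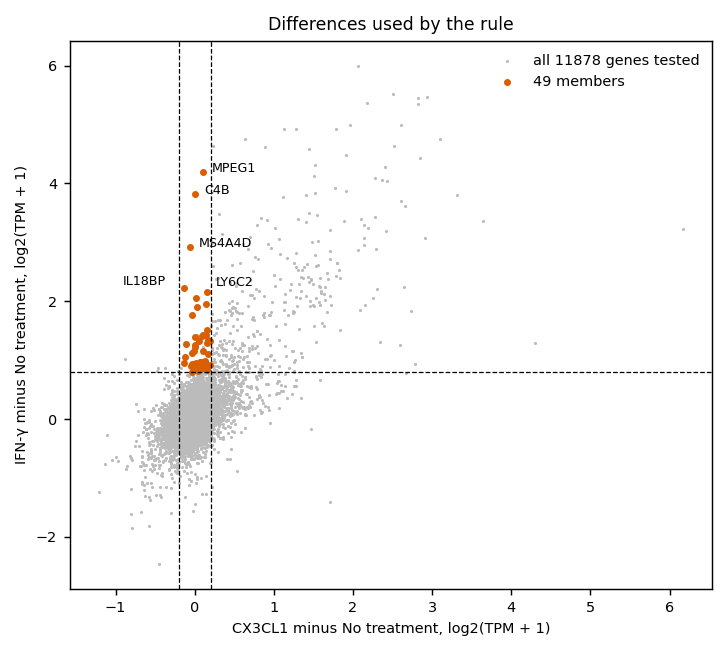
Differences of group means on the log2(TPM + 1) scale for the 11878 genes tested (grey) and the 49 members (orange), with CX3CL1 minus no treatment on the x axis and IFN-γ minus no treatment on the y axis; dashed lines are the limits of the rule. The members fill the strip between -0.2 and 0.2 above 0.8, with MPEG1 at the top, and the grey points in that part of the strip were removed by prefix or by overlapping libraries.

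The limits cut through a continuous spread of values. Just above the IFN-γ limit were GRAMD1B (0.801), NUPR1 (0.822) and NUDT13 (0.827), and just below it were GSTA1 (0.796), CSRNP1 (0.795) and SERPINA3H (0.795). At the upper limit for CX3CL1, SERPINB9E (0.191), CCR1 (0.186) and CYP4V3 (0.175) were inside and PLA1A (0.204), USP17LA (0.215) and ABI3BP (0.217) outside. At the lower limit, IL18BP (-0.136), ANGPTL6 (-0.126) and HIST1H2AB (-0.123) were inside, and SLURP1 (-0.459), HIST1H2BM (-0.478) and HIST1H4F (-0.877) outside. A pseudocount of 1 hides changes of genes near 0 TPM. With a pseudocount of 0.1, 19 of the 49 left the CX3CL1 band, 15 above it and 4 below it, and 15 of the 19 were among the 25 genes under 1 TPM without treatment. For PAX5 the difference became 0.99 and for MISP 0.85, and in these 2 genes all 3 CX3CL1 libraries were above all 3 untreated libraries, as in 5.5% of all genes tested. MPEG1 became 0.54 with overlapping libraries, and MS4A4D became -0.40.

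The libraries that received both agents entered the choice only through the filter on mean TPM, which 49 of the 49 genes also pass over the 9 other libraries. The question they answer is whether IFN-γ raised these genes also when CX3CL1 was present. The CX3CL1 libraries on the other side were held near the untreated level by the rule. Against CX3CL1 alone, 36 of the 49 genes rose (limma, Benjamini-Hochberg adjusted p under 0.05 over all genes tested) and 0 fell, where 3.76% of all genes tested rose and 0.935% fell. All 49 had a positive difference, against 6999 of the 11878 genes tested, and 47 had an unadjusted p under 0.05 in limma, against 2103 of the 11878. In 44 all 3 combined libraries were above all 3 CX3CL1 libraries, against 14.0% of all genes tested, and in 0 they were all below, against 5.48%. The median difference was 1.06 on the log2(TPM + 1) scale, against 0.04 over all genes, with a range of 0.28 to 4.14. With 3 libraries on each side, the smallest two-sided p of an exact permutation test is 0.1, so the calls depend on limma's spread, to which all genes contribute. The combined libraries share replicate numbers with the IFN-γ libraries that chose the genes, and deviations from the group means went together in same-numbered libraries (correlations 0.63 to 0.649 across genes), so the comparison is not wholly independent of the choice.

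**Figure D2:**
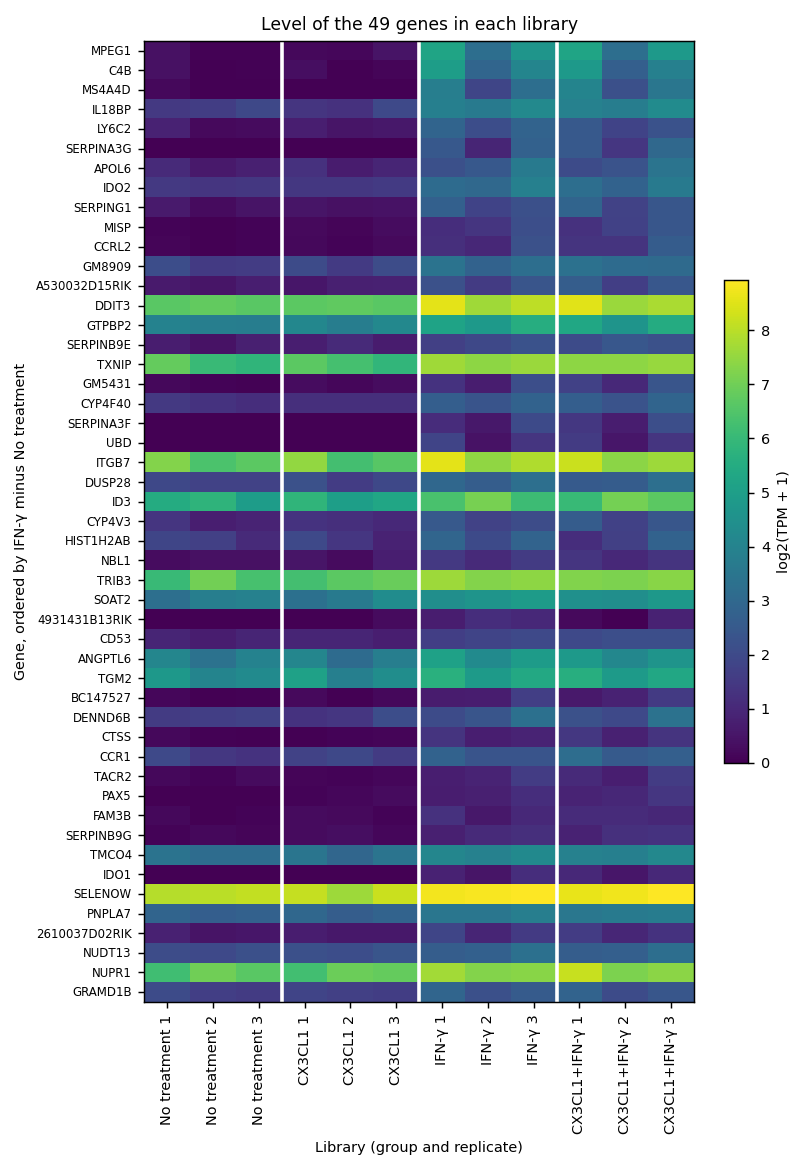
Level of each of the 49 genes (rows, ordered by IFN-γ minus no treatment) in each of the 12 libraries (columns), as log2(TPM + 1) on the colour scale. The rule set the step from no treatment to IFN-γ and the likeness of CX3CL1 to no treatment, in 44 rows the 3 combined libraries are also all above the 3 CX3CL1 libraries, and SELENOW is the brightest row, at 197 to 489 TPM.

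Against IFN-γ alone, 0 of the 49 genes were called in either direction after adding CX3CL1 in the limma test. Of all genes tested, 0.345% rose and 0.0168% fell, so 0 calls is near the background and marks no trait of the set. The members had a larger median standard error, 0.23 against 0.14 over all genes. In 2 of the 49 genes, and in 517 of the 11878 tested, the unadjusted p in limma was under 0.05, so this count is near the background. The smallest adjusted p of the 49 was 0.56. None of them had non-overlapping libraries in either direction, where 8.54% of all genes were wholly above and 7.74% wholly below. The median difference was 0.01 on the log2(TPM + 1) scale. Of the 49 differences, 44 were under 0.3 in size, against 11089 of the 11878 genes tested, so small differences are no trait of the set. Positive differences were seen in 25 of the 49, against 5848 of the 11878. The 95% interval lay within -1 and 1 for 41 of the 49 genes, against 97.5% of all genes, and outside it on at least 1 side for MPEG1, C4B, MS4A4D, SERPINA3G, APOL6, GM5431, HIST1H2AB and 4931431B13RIK. A missed threshold does not show equal levels, and the interval of MPEG1 in this fit, -1.03 to 1.12, leaves room for a change of that size. The fit leaves out the replicate number, so its intervals include spread that same-numbered libraries share. Between same-numbered libraries, MPEG1 differed by -0.01, -0.02 and 0.17 and C4B by -0.18, -0.20 and -0.15. HIST1H2AB differed by -1.75, -0.30 and -0.04. Intervals with the replicate block are not given here. The IFN-γ libraries had been chosen high, which favours a small fall in this comparison. The comparison with CX3CL1 alone shares the combined libraries with this one.

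**Figure D3:**
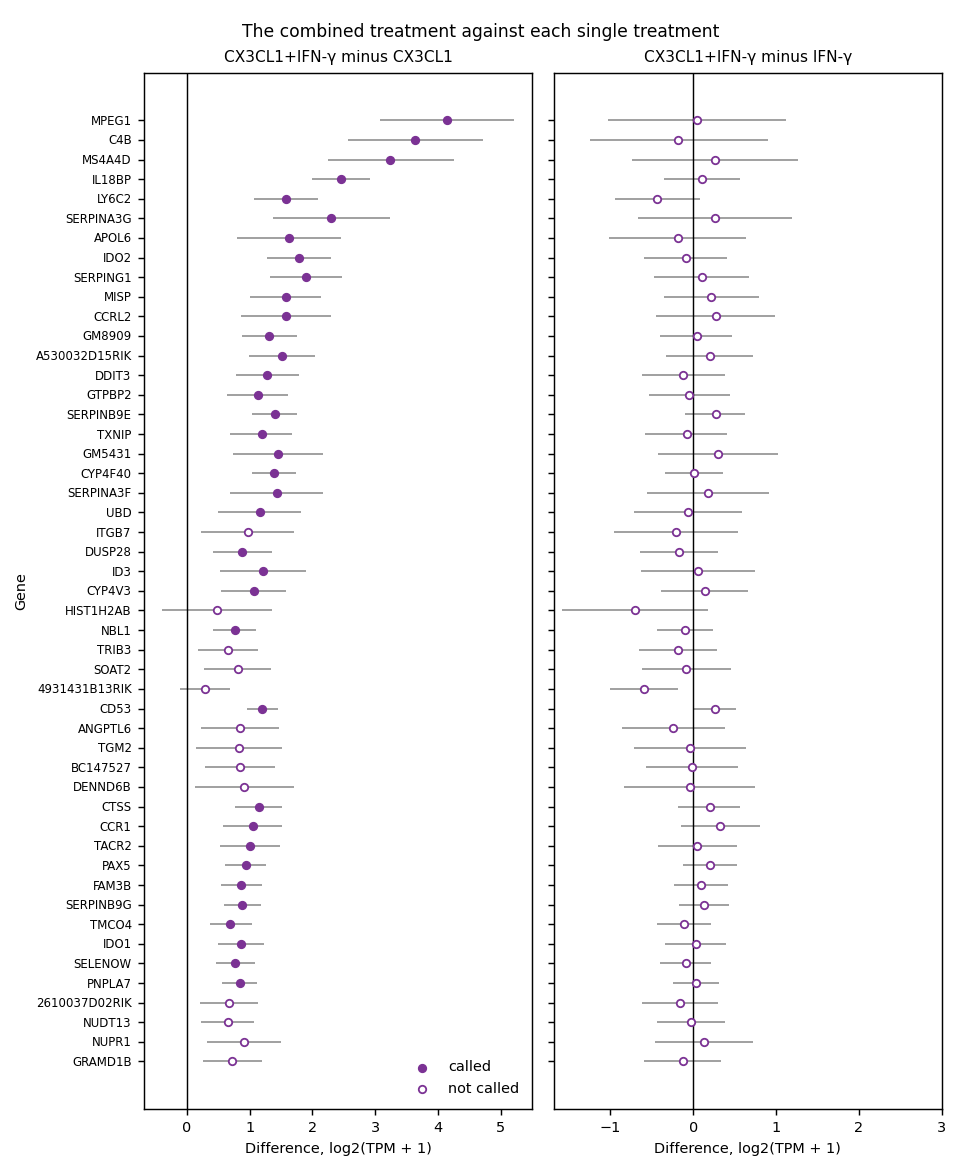
Difference of each of the 49 genes on the log2(TPM + 1) scale with its 95% interval, for the combined treatment minus CX3CL1 (left) and minus IFN-γ (right); filled points passed an adjusted p of 0.05 in limma, and the x axes of the panels cover different ranges. On the left all 49 points are above 0 and 36 are filled. On the right none is filled and 44 lie within 0.3 of 0, as did 11089 of the 11878 genes tested.

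All 3 members of the complement system and of IL-18 control rose with the combined treatment over CX3CL1. C4B (chr17:34728139-34743902, positions here and below from RefSeq on GRCm38.p6), a complement component that forms part of the C3 convertase, was at 0.328, 0.0202 and 0.0377 TPM without treatment, 0.26, 0.0231 and 0.0946 with CX3CL1, 30.6, 6.54 and 15.7 with IFN-γ and 26.8, 5.54 and 14.0 with the combined treatment. All libraries with IFN-γ were far above all without it, and replicate 2 was the lowest in both groups. The rise over CX3CL1 was 3.64 ± 0.50 (SE) on the log2(TPM + 1) scale, with an adjusted p of 0.0011 in limma. SERPING1, the C1 inhibitor, was at 5.74, 2.45 and 3.49 TPM with IFN-γ and 6.32, 2.37 and 4.21 with the combined treatment, against 0.203 to 0.563 untreated and 0.309 to 0.404 with CX3CL1. It rose by 1.89 ± 0.26 over CX3CL1 (limma adjusted p 0.0013). IL18BP (chr7:102015074-102018232), a secreted protein that binds and neutralises IL-18, was at 1.79, 2.11 and 2.81 TPM without treatment, 1.63, 1.39 and 2.96 with CX3CL1, 13.6, 11.5 and 17.4 with IFN-γ and 14.3, 12.8 and 18.7 with the combined treatment. Its rise of 2.46 ± 0.21 had the smallest adjusted p of the 49 genes, 7.7e-05 in limma. C4B has a near-identical copy in the mouse genome, and how reads shared between copies were counted is not given in the sources used here.

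**Figure D4:**
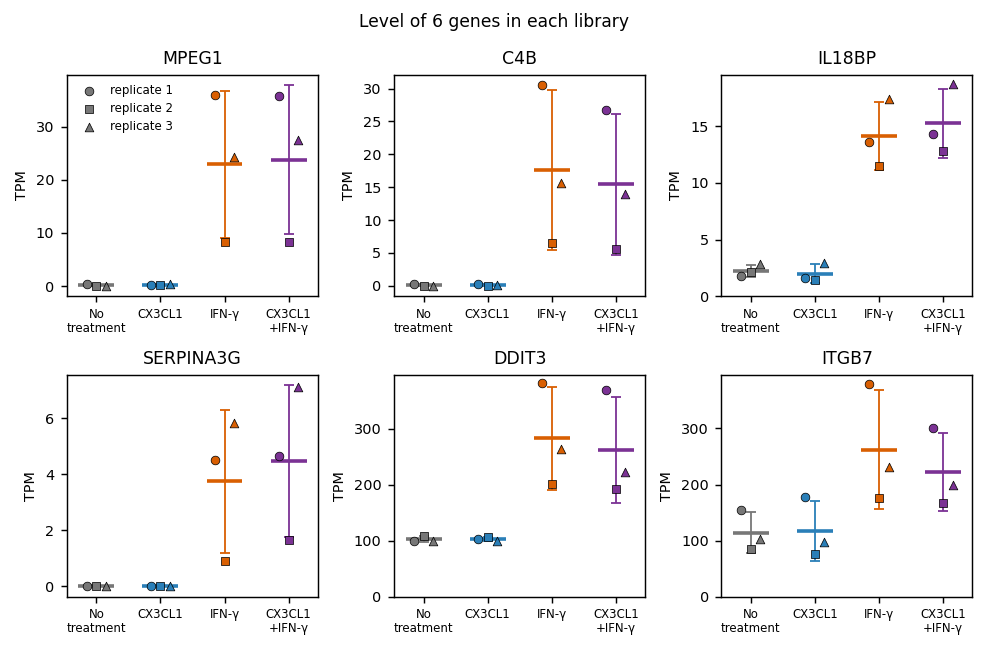
TPM of MPEG1, C4B, IL18BP, SERPINA3G, DDIT3 and ITGB7 in every library, with symbols for replicates 1 to 3, a thick bar for the group mean and thin bars for 1 SD (n = 3). In each panel the CX3CL1 libraries lie near the untreated ones and the combined libraries near the IFN-γ ones, and replicate 2 is the lowest of both IFN-γ groups.

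Other complement genes stood higher with IFN-γ without meeting the rule. Of 13 tested genes on a list of complement and coagulation genes, 8 met the IFN-γ conditions, 6 of them above the CX3CL1 band, and 8 rose with the combined treatment over CX3CL1. C1S1, a complement protease, went from 22.0 ± 11.8 TPM (SD, n = 3) untreated to 40.3 ± 12.8 with CX3CL1 and 225 ± 44.2 with IFN-γ. C3, the central complement protein, went from 1.19 ± 1.09 to 12.5 ± 5.41 and 27.8 ± 19.7 TPM in the same order.

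Protease inhibitors, a protease and a ubiquitin-like modifier made up 6 members, and all 6 rose with the combined treatment over CX3CL1. SERPINA3G (chr12:104236147-104241939), an inhibitor of cathepsins, had 0 in every untreated library and 0, 0 and 0.0174 TPM with CX3CL1, and stood at 4.5, 0.887 and 5.84 TPM with IFN-γ and 4.64, 1.67 and 7.1 with the combined treatment. SERPINA3F, its neighbour 15017 bases away on chromosome 12 with no coding gene between them, was listed at 0 in all 6 libraries without IFN-γ and stood at 1.22, 0.487 and 3.04 TPM with IFN-γ and 1.71, 0.623 and 3.41 with the combined treatment. In both genes replicate 3 was the highest and replicate 2 the lowest of each group with IFN-γ. The rise over CX3CL1 was 2.30 ± 0.43 for SERPINA3G (limma adjusted p 0.0077) and 1.43 ± 0.34 for SERPINA3F (limma adjusted p 0.033). The SERPINA3F call was lost when any 1 of 6 libraries was left out, with an adjusted p of 0.14 in limma without CX3CL1+IFN-γ replicate 3. SERPINA3H, of the same family, was just below the IFN-γ limit of the rule.

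SERPINB9E and SERPINB9G belong to the family of SERPINB9, the inhibitor of granzyme B. SERPINB9E was at 0.653, 0.338 and 0.708 TPM untreated, 0.67, 1.09 and 0.614 with CX3CL1, 2.21, 2.87 and 3.75 with IFN-γ and 3.08, 4.41 and 3.66 with the combined treatment. It rose by 1.40 ± 0.17 over CX3CL1 (limma adjusted p 0.00046). SERPINB9G rose by 0.88 ± 0.14 (limma adjusted p 0.0025) and reached 0.814, 1.38 and 1.47 TPM with the combined treatment. SERPINB9 itself was above the CX3CL1 band, at 13.6 ± 4.45 TPM untreated, 25.1 ± 2.32 with CX3CL1 and 49.7 ± 13.8 with IFN-γ (SD, n = 3). Genes of the SERPINA3 and SERPINB9 families are alike in sequence, so their separate values are uncertain.

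CTSS encodes cathepsin S, which trims the invariant chain of MHC class II molecules. It was at 0.142, 0.0322 and 0 TPM untreated, 0, 0.0552 and 0.097 with CX3CL1, 1.56, 0.701 and 0.866 with IFN-γ and 1.74, 0.778 and 1.52 with the combined treatment, and rose by 1.14 ± 0.17 over CX3CL1 (limma adjusted p 0.0023). It was the only one of 6 tested genes on a list of the MHC class II pathway that met the IFN-γ conditions. CD74 had a larger IFN-γ minus untreated difference, 1.78, but its libraries overlapped. It was at 0.868 ± 0.839 TPM untreated and 6.81 ± 6.37 with IFN-γ (SD, n = 3). RFX5 had a difference of 0.78, just below the limit, and RFXAP, RFXANK and LGMN had -0.03, 0.13 and -0.06. UBD, the ubiquitin-like modifier FAT10, was listed at 0 in all 6 libraries without IFN-γ, at 2.59, 0.349 and 1.61 TPM with IFN-γ and at 1.9, 0.46 and 1.61 with the combined treatment. Its adjusted p of 0.049 in limma was the largest among the 36 calls, and it was lost in 9 of the 12 fits that left out a library, with an adjusted p up to 0.19.

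The tryptophan-degrading enzymes IDO1 (chr8:24584133-24596952) and IDO2 (chr8:24531892-24576414) are encoded side by side, 7718 bases apart. IDO2 was already present at 1.8, 1.61 and 1.72 TPM without treatment and 1.72, 1.71 and 1.85 with CX3CL1, and stood at 7.62, 7.03 and 14.0 TPM with IFN-γ and 8.48, 6.01 and 11.9 with the combined treatment. IDO1 had 0 in every untreated library and 0, 0 and 0.0233 TPM with CX3CL1, and stood at 0.813, 0.405 and 1.25 TPM with IFN-γ and 1.06, 0.441 and 1.05 with the combined treatment. The level of IDO2 was thus above that of IDO1 in every library. The rise over CX3CL1 was 1.78 ± 0.23 for IDO2 (limma adjusted p 8e-04) and 0.86 ± 0.17 for IDO1 (limma adjusted p 0.01). The IDO1 call was lost without CX3CL1+IFN-γ replicate 3, at an adjusted p of 0.059 in limma.

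A group of 9 members, MPEG1, MS4A4D, LY6C2, CD53, CCR1, CCRL2, ITGB7, PAX5 and TACR2, encode proteins mostly known from leukocytes or receptors of chemokines and neurokinins, and 8 of these 9 rose over CX3CL1. MPEG1 (chr19:12460770-12465285), or perforin-2, a pore-forming protein of phagocytes, was at 0.313, 0.0425 and 0.038 TPM untreated, 0.141, 0.117 and 0.384 with CX3CL1, 36.1, 8.38 and 24.3 with IFN-γ and 35.8, 8.27 and 27.5 with the combined treatment. Its rise over CX3CL1, 4.14 ± 0.50 on the log2(TPM + 1) scale (limma adjusted p 0.00046), was the largest of the 49 genes, and the combined treatment differed from IFN-γ by 0.05. MS4A4D, a membrane protein with 1 untreated library at 0.13 TPM and the other 5 without IFN-γ listed at 0, was at 13.3, 2.62 and 8.46 TPM with IFN-γ and 15.3, 3.59 and 10.4 with the combined treatment, a rise of 3.24 ± 0.46 (limma adjusted p 0.0015). In both genes replicate 2 was the lowest and replicate 1 the highest of each group with IFN-γ. PTPRC, the leukocyte marker CD45, did not pass 0.0441 TPM in any library, and the summed leukocyte markers were lower in the IFN-γ libraries than in the untreated ones, as given above. In bulk RNA, more transcript per cell and more cells with the transcript cannot be told apart.

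LY6C2, a surface protein of monocytes, was at 6.44, 3.35 and 6.15 TPM with IFN-γ and 4.68, 2.44 and 3.77 with the combined treatment, lower in each numbered pair. The difference of -0.44 had a 95% interval of -0.95 to 0.08 and an adjusted p of 0.98 in limma, while the rise over CX3CL1 was 1.57 ± 0.24 (limma adjusted p 0.0021). LY6C2 has a close paralog, which makes its own level uncertain. CD53, a tetraspanin, was at 0.644 to 0.919 TPM in the untreated libraries, 0.701 to 0.915 with CX3CL1, 2.18, 2.52 and 2.96 with IFN-γ and 2.91, 3.38 and 3.4 with the combined treatment. It rose by 1.20 ± 0.12 over CX3CL1 (limma adjusted p 0.00016) and was higher than with IFN-γ alone by 0.26 in the mean and in 3 of 3 numbered pairs, at an unadjusted p of 0.047 and an adjusted p of 0.98 in limma.

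Receptors were low. CCR1, a receptor of CC chemokines, was at 1.45 to 2.95 TPM untreated, 1.96 to 2.85 with CX3CL1, 6.07, 4.03 and 3.95 with IFN-γ and 8.19, 4.74 and 5.51 with the combined treatment, a rise of 1.05 ± 0.22 (limma adjusted p 0.015) that was lost without CX3CL1 replicate 3 (0.063) or CX3CL1+IFN-γ replicate 1 (0.062). CCRL2, an atypical receptor that presents chemerin, was at 1.33, 1.01 and 3.67 TPM with IFN-γ and 1.51, 1.52 and 5.09 with the combined treatment, against 0 to 0.0776 untreated and 0.0602 to 0.176 with CX3CL1. It rose by 1.58 over CX3CL1 (limma adjusted p 0.016). TACR2, a neurokinin receptor, rose by 1.01 and PAX5, a transcription factor of B cells, by 0.94, and both stayed under 2 TPM in every library. The TACR2 call (limma adjusted p 0.02) became 0.087 without CX3CL1+IFN-γ replicate 3, and it was also lost without CX3CL1 replicate 1 or 3 or CX3CL1+IFN-γ replicate 1.

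ITGB7 (chr15:102215994-102233405) encodes an integrin β subunit, lies 52524 bases from the member SOAT2 with 2 coding genes between them, and was among the most abundant members. It was at 155, 84.7 and 103 TPM untreated, 177, 76.4 and 97.5 with CX3CL1, 380, 176 and 231 with IFN-γ and 300, 167 and 199 with the combined treatment. The groups overlapped between the combined and the CX3CL1 treatment, since CX3CL1 replicate 1 was above CX3CL1+IFN-γ replicate 2, although the combined treatment was higher within each replicate number. The difference of 0.97 ± 0.35 had an adjusted p of 0.15 in limma, and of 7.1e-05 with the replicate number as a block.

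A group of 6 members, DDIT3, TRIB3, NUPR1, GTPBP2, TXNIP and SELENOW, are known from cell stress or redox control. They had untreated means of 13.5 to 259 TPM, so they were not near 0 before treatment. DDIT3 (chr10:127290793-127296291), the transcription factor CHOP of the integrated stress response, was at 98.8, 109 and 100 TPM untreated, 103, 106 and 99.1 with CX3CL1, 382, 202 and 264 with IFN-γ and 369, 193 and 223 with the combined treatment. The 6 libraries without IFN-γ lay between 98.8 and 109 TPM, and all 6 with IFN-γ were well above them. It rose by 1.28 ± 0.23 over CX3CL1 (limma adjusted p 0.0061). GTPBP2, a GTP-binding protein of ribosome rescue, was at 12.7 to 14.4 TPM untreated, 12.7 to 17.1 with CX3CL1, 35.3, 27.6 and 46.4 with IFN-γ and 39.2, 23.4 and 44.5 with the combined treatment, a rise of 1.13 ± 0.22 (limma adjusted p 0.012). That call was lost without CX3CL1+IFN-γ replicate 1 (0.053) or 3 (0.065).

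TRIB3, a pseudokinase induced by CHOP, was at 65.9, 131 and 79.3 TPM untreated, 75.1, 102 and 117 with CX3CL1, 198, 155 and 169 with IFN-γ and 150, 145 and 163 with the combined treatment. NUPR1, a stress-induced nuclear protein, was at 71.8, 128 and 99.1 TPM untreated, 73.9, 121 and 112 with CX3CL1, 205, 155 and 161 with IFN-γ and 290, 142 and 164 with the combined treatment. In both genes all combined libraries were above all CX3CL1 libraries. The adjusted p over CX3CL1 was 0.12 for TRIB3 and 0.085 for NUPR1 in limma, and 0.081 and 0.078 with the replicate block.

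TXNIP, which binds and inhibits thioredoxin, was at 56.6 to 111 TPM untreated, 57.7 to 102 with CX3CL1, 200, 171 and 190 with IFN-γ and 170, 172 and 188 with the combined treatment, and rose by 1.19 ± 0.23 (limma adjusted p 0.009). SELENOW, a small selenoprotein, had the highest level of the set, with 244, 254 and 278 TPM untreated, 284, 197 and 298 with CX3CL1, 435, 465 and 489 with IFN-γ and 394, 432 and 486 with the combined treatment. It rose by 0.77 ± 0.14 (limma adjusted p 0.0078).

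A further 7 members are linked to the handling of lipids or fatty acids. The abundant SOAT2, a cholesterol-esterifying enzyme, was at 20.2, 23.7 and 29.1 TPM with IFN-γ and 21.6, 20.3 and 26.4 with the combined treatment, against 8.72 to 14.2 untreated and 8.84 to 19.2 with CX3CL1. ANGPTL6, a secreted angiopoietin-like factor, was at 34.0, 18.3 and 28.6 TPM with IFN-γ and 27.1, 16.8 and 23.4 with the combined treatment, against 9.39 to 16.2 untreated and 7.69 to 16.0 with CX3CL1. Neither passed the test over CX3CL1 (limma adjusted p 0.091 and 0.13), nor did GRAMD1B, a sterol transporter (0.082). With the replicate block the adjusted p values were 0.0048 for SOAT2, 0.00013 for ANGPTL6 and 0.0045 for GRAMD1B in limma.

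The other 4 lipid genes rose over CX3CL1. CYP4F40, a cytochrome P450 of the fatty acid hydroxylase family, was at 1.26 to 1.81 TPM untreated, 1.31 to 1.33 with CX3CL1, 5.4, 3.96 and 6.04 with IFN-γ and 5.32, 3.92 and 6.3 with the combined treatment, a rise of 1.39 ± 0.16 (limma adjusted p 0.00043). CYP4V3, of the same family, rose by 1.06 ± 0.24 (limma adjusted p 0.024), a call lost without CX3CL1+IFN-γ replicate 1 or 3 (0.1 each) or CX3CL1 replicate 2 (0.052) or 3 (0.085). PNPLA7, a lysophospholipase, was at 10.5, 10.4 and 13.2 TPM with IFN-γ and 10.6, 11.6 and 12.5 with the combined treatment, and rose by 0.84 ± 0.13 (limma adjusted p 0.0025). APOL6, an apolipoprotein L linked to cell death, was at 3.59, 4.54 and 11.7 TPM with IFN-γ and 3.1, 3.89 and 9.82 with the combined treatment, so replicate 3 was far above the others in both. It rose by 1.63 ± 0.38 (limma adjusted p 0.029), and without CX3CL1+IFN-γ replicate 3 its adjusted p was 0.12, without CX3CL1 replicate 2 0.077 and without CX3CL1 replicate 3 0.083.

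Another 10 proteins have assorted roles, and 6 of the 10 rose over CX3CL1. ID3, an inhibitor of basic helix-loop-helix factors, went against the usual order of replicates: it was at 43.8, 55.0 and 29.5 TPM untreated, 56.3, 31.2 and 38.1 with CX3CL1, 81.9, 135 and 69.2 with IFN-γ and 64.5, 132 and 101 with the combined treatment, with replicate 2 the highest of both IFN-γ groups. Its rise of 1.21 ± 0.31 had an adjusted p of 0.048 in limma, and the call was lost in 6 of the 12 fits that left out a library, with an adjusted p up to 0.16. NBL1, a BMP antagonist that lies 23117 bases from TMCO4 on chromosome 4, rose by 0.76 and TMCO4 by 0.69 (limma adjusted p 0.015 and 0.021). Both calls were lost without CX3CL1+IFN-γ replicate 3 (0.073 and 0.11) or replicate 1 (0.062 and 0.05). MISP, an actin-binding protein of the mitotic spindle, was at 1.27, 1.61 and 3.43 TPM with IFN-γ and 1.42, 2.28 and 4.25 with the combined treatment and rose by 1.57 ± 0.26 (limma adjusted p 0.004). FAM3B, a secreted protein of pancreatic islets, rose by 0.86 and DUSP28, a phosphatase, by 0.88 (limma adjusted p 0.005 and 0.038), the latter with an adjusted p up to 0.16 in the 5 fits without a library that lost the call.

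TGM2, the tissue transglutaminase that cross-links proteins, was at 26.2, 15.3 and 18.2 TPM untreated, 33.5, 13.4 and 19.8 with CX3CL1, 49.9, 28.1 and 41.2 with IFN-γ and 47.9, 27.9 and 40.0 with the combined treatment. The groups overlapped because CX3CL1 replicate 1 was above CX3CL1+IFN-γ replicate 2, and its adjusted p over CX3CL1 was 0.17 in limma and 0.0011 with the replicate block. DENND6B and NUDT13 had adjusted p values of 0.21 and 0.079 in limma, and 0.018 and 0.0057 with the block. HIST1H2AB, a replication-dependent histone H2A gene with many near copies, was at 6.56, 3.0 and 6.27 TPM with IFN-γ and 1.24, 2.24 and 6.09 with the combined treatment, and its difference of -0.70 from IFN-γ was the lowest of the 49 genes, with a 95% interval of -1.58 to 0.18. Over CX3CL1 its adjusted p was 0.6 in limma.

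The last 6 members are given without a role. GM8909, A530032D15RIK and GM5431 rose over CX3CL1 by 1.31, 1.51 and 1.45 (limma adjusted p 0.0023, 0.003 and 0.026). The GM5431 call was lost in 5 of the 12 fits that left out a library, at 0.11 without CX3CL1+IFN-γ replicate 3. BC147527 and the noncoding RNA 2610037D02RIK did not pass (limma adjusted p 0.086 and 0.11) and had 0.023 and 0.011 with the replicate block. The noncoding RNA 4931431B13RIK had 0 in every untreated library and 0, 0 and 0.192 TPM with CX3CL1, and stood at 0.643, 1.25 and 1.03 TPM with IFN-γ and at 0.183, 0 and 0.82 with the combined treatment. It was lower with the combined treatment than with IFN-γ in each numbered pair, by -0.60 on the log2(TPM + 1) scale, with an unadjusted p of 0.0075 and an adjusted p of 0.56 in limma.

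In all, 13 of the 49 genes did not pass the test over CX3CL1, with differences of 0.28 to 0.97 and adjusted p values of 0.079 to 0.6 in limma. Non-overlapping libraries were seen in 8 of the 13. ITGB7, NUPR1, TRIB3, TGM2 and ANGPTL6 were the most abundant of the 13. With the replicate number as a block, 45 of the 49 were called, 9 of them newly and with 0 lost, and NUPR1, TRIB3, HIST1H2AB and 4931431B13RIK were still not called. The share of all genes called with the block is not given here, so the gain of 9 is not shown to be a trait of the set.

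The numbered libraries also kept their order within the set. The 3 combined libraries ranked as the 3 IFN-γ libraries with the same numbers did in 31 of the 49 genes, against 42.0% of all genes tested. Replicate 2 was the lowest IFN-γ library in 34 of the 49 genes and the lowest combined library in 32, whereas replicate 3 was the highest in 26 of each. The combined library was above the IFN-γ library of the same number in 3 of 3 pairs for 13 genes, in 2 for 7, in 1 for 13 and in 0 for 16. How often these highest and lowest ranks and these pair counts occur over all genes tested was not counted. They are therefore not shown to be a trait of the set. What the replicate numbers share is not given in the labels.

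Most genes on lists of known interferon-responsive functions did not fall into the set. Of 224 tested genes on 15 such lists, 116 met the IFN-γ conditions, 106 of these were above the CX3CL1 band and 10 were members, namely C4B, SERPING1, IL18BP, SERPINA3F, SERPINA3G, UBD, APOL6, IDO1, IDO2 and CTSS. No member came from the lists of MHC class I peptide supply, where 7 of 10 tested genes met the IFN-γ conditions, or of antiviral effectors, where 21 of 25 did, and all 28 of these genes were above the CX3CL1 band. TAP1, which carries peptides into the endoplasmic reticulum, was at 19.1 ± 4.88 TPM untreated, 42.3 ± 14.1 with CX3CL1 and 140 ± 37.8 with IFN-γ (SD, n = 3). The rule left out several prefixes of such families, which lowers the number of members that could come from them.

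The 330 genes above the CX3CL1 band stood at higher levels before treatment, with a median untreated mean of 9.65 TPM against 0.824 TPM for the 49. Their median IFN-γ minus untreated difference was 1.82 against 1.10, and their median CX3CL1 minus untreated difference was 0.86 against 0.04, as the rule set it. With the combined treatment against IFN-γ, 15 of the 330 rose and 275 had a positive difference with a median of 0.19, and 0 of the 49 rose and 25 were positive with a median of 0.01. Over all genes tested 0.345% rose in that comparison and 5848 of the 11878 differences were positive, so 0 and 25 of the 49 are near the background. With the combined treatment against CX3CL1, 230 of the 330 and 36 of the 49 rose. The difference between the sets was not tested, since the rule formed them from the libraries compared here.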

How the data were processed

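RNA from CT26 cells was sequenced as strand-specific mRNA libraries, 12 in all, in 4 groups of 3. The deposited values are TPM per gene symbol, which the authors made by aligning reads to mm10 with STAR 2.7.3a. Their own count test was DESeq2 1.22.1, and the counts were not analysed here. How counts became TPM and which annotation was used are not given in the sources used here. TPM carry no depth, so depth is unknown and precision comes from the 3 replicates. They are shares of a fixed total, and a value listed at 0 can be a failed estimate.

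log2(TPM + 1) of the 11878 of 23636 symbols with a mean of at least 0.2 TPM was fitted in R 4.3.3 with limma 3.58.1 (lmFit, eBayes with intensity trend), with all 12 libraries and Benjamini-Hochberg adjustment over all genes. Differences on this scale understate changes of low genes. The fit was tested on simulated data. Groups came from the labels, doses and time from the study's methods and figure legend. Libraries with the same replicate number deviated together across genes (correlations 0.351 to 0.428 for the combined and CX3CL1 groups, 0.63 to 0.649 for the combined and IFN-γ groups), so a fit with the number as a block was an alternative, beside another pseudocount, filter, scaling, variance model and set of libraries. The labels do not say what a number shares.

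The members and lists were chosen with earlier results of these data known, and the grouping by role was made after the values were seen. Genes named are all members, the genes next to the limits of the rule, and markers and examples from the lists, the examples having been chosen after their values were seen. Motifs were searched in the RefSeq promoter table.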

Additional observations from a re-analysis of the deposited data

How the results depend on the processing

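Over 20 alternatives, 12 of which left out a library, none of the 49 genes changed direction against CX3CL1. The number called higher was 37 with a pseudocount of 0.1, 26 without a filter, 27 of 38 at a mean of at least 1 TPM, 33 with median-ratio scaling, 32 with quantile normalization, 32 with only the 6 libraries compared, 34 without an intensity trend and 45 with the replicate block, against 36. It ran from 24, without CX3CL1+IFN-γ replicate 3, to 37 when 1 library was left out. The shares of all genes called under these alternatives are not given here. Of the 36 calls, 21 held under every alternative and 23 in all 12 fits without a library, and 13 were lost in at least 1 of these 12. CCRL2 and SELENOW each kept theirs in 19 of the 20 alternatives, and lost it either without a filter or with only the 6 libraries compared. The median difference was 1.83 with a pseudocount of 0.1, against 1.06. Against IFN-γ, 0 genes were called under any alternative, the smallest adjusted p in limma was 0.066, the sign of 34 uncalled differences changed under some alternative, and the median ran from -0.15 to 0.16 when 1 library was left out. The replicate block changed no call there.

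Membership was less settled than the calls. The rule took 70 genes with a pseudocount of 0.1, 30 of them among the 49, and 38 at a mean of at least 1 TPM, all members. It took 43 with median-ratio scaling and 38 with quantile normalization, which kept 43 and 36 of the 49. With 1 library left out it took 43 to 82 genes, the 82 without IFN-γ replicate 2, when all 49 were kept. With any other library of the rule left out, 33 to 42 of the 49 were kept, the fewest without No treatment replicate 1. The cause was not tested. No depth is known, so genes under 1 TPM rest on an unknown number of reads, and 3 replicates a group limit every interval.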

Other observations

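DDIT3, TRIB3, NUPR1 and GTPBP2 are known targets of ATF4 or CHOP in the integrated stress response. A list of such targets was written after the members had been seen, so it carries no test. Of its genes, 20 passed the filter on TPM, and 4 were these members. Among the other 16, the IFN-γ libraries were all above the untreated ones in 5, against 20.6% of all genes tested. Their median IFN-γ minus untreated difference was 0.26 on the log2(TPM + 1) scale, against 0.03 over all genes tested. It was positive in 12 of the 16, against 6593 of the 11878 genes tested. PPP1R15A, a subunit of the eIF2α phosphatase, had a difference of 0.97 and missed the set with a CX3CL1 difference of 0.22. CEBPB had 0.75 and SESN2 0.58. CHAC1 had 0.77, ATF4 itself 0.28 and ATF5 -0.28, with overlapping libraries in each. ASNS and PHGDH, biosynthetic enzymes, had 0.24 and 0.22, and PSAT1 had -0.15, with overlapping libraries in each. On a list of 8 genes of the unfolded protein response outside ATF4, such as the chaperone HSPA5, HERPUD1 was the 1 gene without overlap, and the median difference was 0.22.

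GBP8, CXCL9, SLC6A9 and SLC41A3, taken out of the set by their prefix alone, had IFN-γ minus untreated differences of 1.46, 1.43, 1.23 and 0.98 on the same scale, and CX3CL1 minus untreated differences of 0.09, 0.03, 0.10 and -0.02. Of the 8 genes removed in this way, 6 rose with the combined treatment over CX3CL1.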
